A study of Homo sapiens with 8 samples.

Results

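The 41 genes described here encode the working parts of the lysosome and of autophagy: 10 cathepsins, 13 other acid hydrolases, 2 activator proteins, 5 membrane proteins, 3 proton pump subunits, 2 transcription factors and 6 autophagy proteins. They were listed by gene symbol for these roles, with earlier results of these data known, and all 41 were found among the 27696 genes of the count table, and all 41 were among the 13798 genes that passed the filter on low counts. The lysosome is the acidic organelle in which proteins, lipids and sugars are broken down, and autophagy encloses part of the cell's contents in a membrane and delivers it there. TFEB and TFE3 are transcription factors that switch on many lysosomal genes through a short DNA element in their promoters. Senescent cells are known for an enlarged lysosomal compartment, and the beta-galactosidase staining used to mark senescence reads the activity of GLB1, a lysosomal enzyme.

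RNA was sequenced from IMR90, a line of human lung fibroblasts, that had spent 3 days in the conditioned medium of IMR90 ER:RAS fibroblasts. The donor cells carry the RAS oncogene fused to a domain of the oestrogen receptor, so that 4-OHT (4-hydroxytamoxifen) starts oncogene-induced senescence in them. Medium was collected at day 0, 4, 7 or 10 of this induction, and the recipient groups are called D0, D4, D7 and D10. The recipients themselves were normal IMR90 cells, and the labels name no transgene or drug given to them. Each group had 2 libraries from 2 independent experiments, which makes 8 libraries in all. The titles give only a replicate number, and libraries with the same number were taken as the same experiment. D0, the medium of donor cells not yet induced, was the control for every comparison, so the 3 comparisons with D0 share its 2 libraries.

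The libraries held between 11708193 and 13395912 counts, and the 41 members together took between 120565 and 159436 counts of each. Fibroblast markers were abundant, with 29649 to 46255 summed CPM (counts divided by the library's TMM-scaled total and multiplied by 1000000) over 8 genes in 7 libraries and 9633 CPM in D10 of experiment 2, which stands apart from the rest. All 8 fibroblast markers were lower at D10 than at D0 in both experiments. Of 8 macrophage markers, 7 never passed 5 counts in a library, and the eighth, CD14, had 12 to 32 counts; their sum lay between 1.38 and 2.96 CPM, with 1.38 to 2.93 CPM at D0 and 1.66 to 2.45 CPM at D10. IL1B and CXCL8, secreted factors of the senescent phenotype, summed to 1.01 to 8.05 CPM in the D0, D4 and D7 libraries, and to 200 CPM and 3069 CPM in the D10 libraries of experiments 1 and 2. In bulk RNA, fewer cells that express a gene and less of its RNA per cell cannot be told apart.

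Levels of the members at D0, in CPM per kilobase of exon so that genes can be compared, spanned a wide range. PSAP, the precursor of the saposins that help hydrolases act on lipids, was the highest, at 544 ± 48.4 CPM per kilobase (SD, n = 2), followed by the tetraspanin CD63 at 434 ± 144, the cysteine protease CTSB at 191 ± 47.3 and the membrane glycoprotein LAMP1 at 127 ± 24.7. CD63 and PSAP differed by less than the spread of CD63. The lowest were CTSS, a cysteine protease best known from antigen-presenting cells, at 0.117 ± 0.0535 CPM per kilobase, TFEB at 1.04 ± 0.182, and FUCA1, which removes fucose from glycoproteins. On this per-length scale CTSS ranked last of the 41 at D0, D4 and D7, and 39th at D10.

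**Figure D1:**
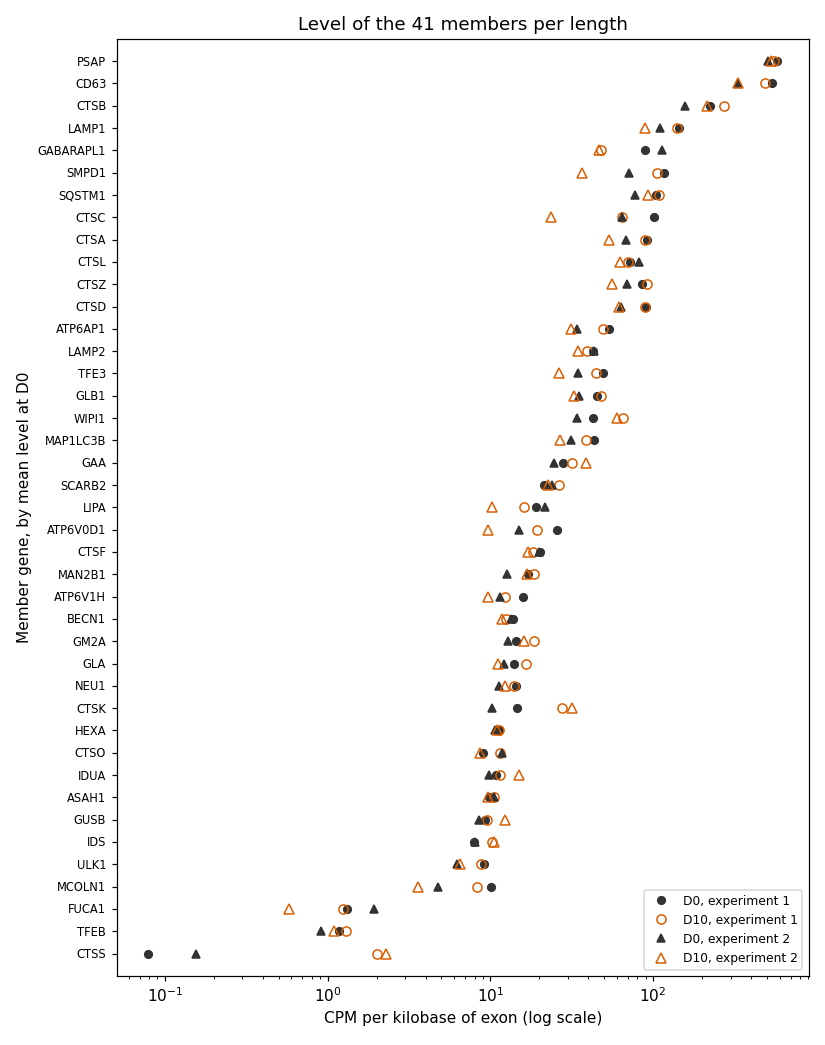
Level of each of the 41 members in the D0 libraries (filled symbols) and D10 libraries (open symbols), in CPM per kilobase of exon on a log axis, with circles for experiment 1 and triangles for experiment 2. PSAP was the highest at 544 at D0, and CTSS the lowest at 0.117, the member whose D10 points lie farthest from its D0 points.

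The promoters are shown first, since TFEB and TFE3 recognise an E-box, CACGTG, within the longer CLEAR element, whose centre is TCACGTGA. RefSeq promoter windows (250 bases before to 50 after the start, GRCh38.p14) were at hand for 32 of the 41 members. CTSS and CTSK were among the members without a window. CACGTG stood in 9 of these windows (28.1%), against 7.43% of 27305 windows of all genes. TCACGTGA, which contains CACGTG, stood in 5 (15.6%), against 1.04% of all windows. Because many lysosomal genes are regulated through this element, a higher share in a list chosen for such roles was likely in advance. Both motifs read the same on either strand. By role, CACGTG stood in 3 of 4 windows of membrane proteins, 3 of 6 of cathepsins, 1 of 2 of the proton pump and 2 of 11 of the hydrolases, and in none of the 6 windows of autophagy genes or the 2 of the transcription factors. For 20 of the 32 genes, more than 30 of the 250 bases before the RefSeq start lie within an exon of the same gene in GENCODE 29, so that the window depends on the start chosen. LAMP1 has the most copies, and the 250 bases before its start on the plus strand at chr13:113296989-113297238 are given with each CACGTG in capitals.
LAMP1: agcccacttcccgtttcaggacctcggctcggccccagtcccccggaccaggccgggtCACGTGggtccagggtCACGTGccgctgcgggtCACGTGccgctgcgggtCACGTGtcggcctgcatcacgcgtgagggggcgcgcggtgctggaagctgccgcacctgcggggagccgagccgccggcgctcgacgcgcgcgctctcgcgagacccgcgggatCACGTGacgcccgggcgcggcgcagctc

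The 5 members with the longer motif are shown side by side, 30 bases each in the direction of the gene, with TCACGTGA in capitals, since they are the members with the closest match to the CLEAR centre. GAA, LAMP1 and MCOLN1 have 2 copies each, of which the one farther from the start is shown.
ATP6V0D1, chr16:67481199-67481228, minus strand: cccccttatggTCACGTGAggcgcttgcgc
CTSA, chr20:45891298-45891327, plus strand: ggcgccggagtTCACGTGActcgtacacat
GAA, chr17:80101493-80101522, plus strand: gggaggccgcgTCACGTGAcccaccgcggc
LAMP1, chr13:113297199-113297228, plus strand: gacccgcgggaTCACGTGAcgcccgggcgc
MCOLN1, chr19:7522571-7522600, plus strand: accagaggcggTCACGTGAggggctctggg

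WIPI1, an autophagy gene higher at D10 in both experiments but not called by every fit below, has neither motif in its window. It has the highest log2 fold change at D10 of the 23 members without CACGTG, which ran from -1.10 to 0.71. The 233 bases before its GENCODE start at chr17:68457514-68457746 on the minus strand are these.
WIPI1: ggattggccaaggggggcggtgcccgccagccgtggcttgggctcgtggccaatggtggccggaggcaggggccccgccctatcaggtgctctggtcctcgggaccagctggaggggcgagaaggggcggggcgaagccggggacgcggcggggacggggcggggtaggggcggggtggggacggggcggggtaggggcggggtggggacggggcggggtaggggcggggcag

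None of the 5 members with TCACGTGA was called at any day by edgeR's quasi-likelihood test, with or without the experiment as a block; their log2 fold changes at D10 lay between -0.49 (ATP6V0D1) and 0.43 (GAA), with a median of -0.16. Over the 9 members with CACGTG the median at D10 was -0.15, and over the 23 without it -0.01. CTSS and CTSK, both called at D10 with the block, had no window and are in neither set. A match of these letters is a description of the sequence and not a measured binding site.

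Whether medium from induced donors moved the members as a whole was asked at each day. Their centre lay close to no change: the median log2 fold change of the 41 was -0.01 at D4, -0.09 at D7 and -0.03 at D10, against 0.0088, -0.00041 and 0.0037 over all 13798 genes tested. At D10, 34 of the 41 (82.9%) lay within 0.5 of no change on the log2 scale, against 77.8% of all genes. The half-width of the 95% interval of a member at D10 was 0.65 in the median without a block and 0.41 with the experiment as a block. At D10, 12 members were higher in both experiments (29.3%, all genes 31.1%), 19 were lower in both (46.3%, all genes 32.3%) and 10 went opposite ways. The median at D10 without a block shifted with single libraries. It was -0.21 without D10 of experiment 1 and 0.16 without D10 of experiment 2. Such a fit sets D10 of 1 experiment against D0 of both, so the difference between the experiments enters it. Within experiments 1 and 2 the median log2 change at D10 was -0.04 and -0.12.

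**Figure D2:**
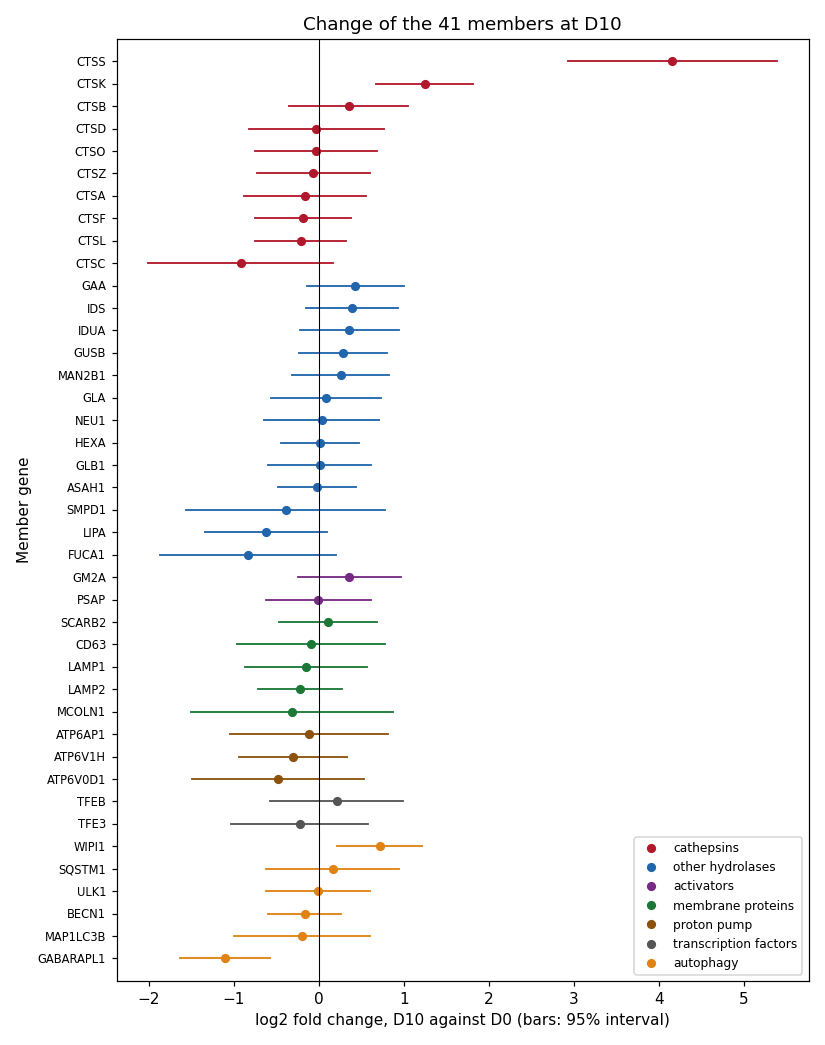
Log2 fold change at D10 against D0 for each of the 41 members, grouped and coloured by role, with bars for the 95% interval of the fit without a block. CTSS at 4.16 and CTSK at 1.25 lie to the right of the rest, GABARAPL1 at -1.10 to the left, and 34 members lie within 0.5 of 0.

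At D4 and D7, edgeR's quasi-likelihood test without a block called 0 of the 41 members after Benjamini-Hochberg adjustment, and 0 of all genes (0%); 2 members had an unadjusted p under 0.05 at D4 and 2 at D7, which is 4.88% of the members against 2.96% and 4.34% of all genes. With the experiment as a block it called 0 members at D4 (0.275% of all genes) and 1 at D7, GABARAPL1 (1.25% of all genes). DESeq2 called GABARAPL1 at both days (0.348% and 0.823% of all genes). At D10 the test without a block called 1 member, CTSS, against 0.29% of all genes, and 4 members (9.76%) had an unadjusted p under 0.05, against 7.94% of all genes. With the block it called 4, namely CTSS, CTSK, WIPI1 and GABARAPL1 (9.76% of the members, 4.99% of all genes), of which 3 were higher and 1 lower. DESeq2 called CTSS, CTSK and GABARAPL1 (2.59% of all genes). The number called with the block was set by single libraries: it was 1 of 41 without D0 of experiment 2 (0.732% of all genes), 10 without D10 of experiment 1 (13.4%), and 3 or 4 without any other library.

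**Figure D3:**
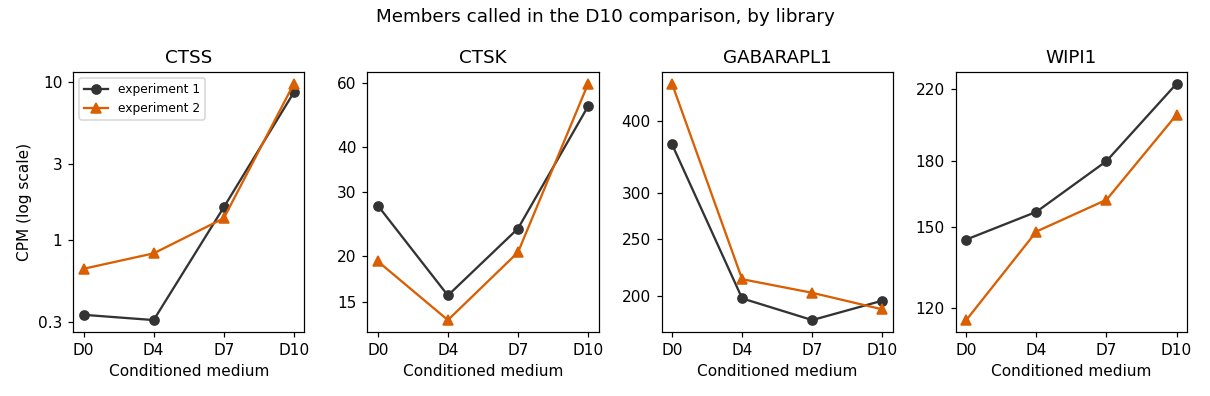
CPM of the 4 members called at D10 in each library, on log axes that differ between panels, by conditioned medium (D0 to D10), with circles for experiment 1 and triangles for experiment 2. CTSS rose from 0.335 and 0.655 to 8.55 and 9.7 CPM, CTSK was lowest at D4 and highest at D10, with 51.7 and 59.6, GABARAPL1 was lower than at D0 at every later day, and WIPI1 was higher at each day than at the one before.

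Among the cathepsins, the proteases of the lysosome, the 2 that stood out were CTSS and CTSK, and the other 8 were not called at any day with or without the block. CTSS (ENSG00000163131.10, chromosome 1, 150730196 to 150765957, minus strand, GRCh38) had, in experiments 1 and 2, a level of 0.335 and 0.655 CPM in D0 medium, 0.31 and 0.82 in D4, 1.6 and 1.37 in D7, and 8.55 and 9.7 in D10. Both D7 libraries were above all D0 and D4 libraries, and both D10 libraries far above these. The D0 values rest on 4 and 9 counts, and those at D10 on 108 and 123. CTSS was 17.9-fold higher at D10 than at D0, a log2 fold change of 4.16 (SE 0.53, 95% interval 2.93 to 5.39), with an adjusted p of 0.0379 by the quasi-likelihood test of edgeR (Benjamini-Hochberg) and 0.00146 with the block. Within the experiments the log2 change was 4.15 and 3.61. The call without a block was lost, at adjusted p between 0.067 and 0.255, without either D0 library, either D7 library or D10 of experiment 2, while with the block it held without any 1 of the 8. At D7 the log2 fold change was 1.55 (95% interval 0.29 to 2.80, adjusted p 0.872, with the block 0.247). The D10 and D4 media were also compared with each other: 0 of the 41 members were called without a block (0.00725% of all genes) and 2 with it, CTSS and CTSK (2.55% of all genes).

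CTSK (ENSG00000143387.12, chromosome 1, 150796208 to 150808323, minus strand), the collagen-degrading protease known from osteoclasts, had 27.6 and 19.4 CPM in D0 medium, 15.6 and 13.3 in D4, 23.8 and 20.5 in D7, and 51.7 and 59.6 in D10. The D10 libraries were the highest and the D4 libraries the lowest of the 8, while D0 and D7 overlapped. At D10 it was 2.37-fold higher than at D0, with a log2 fold change of 1.25 (SE 0.25, 95% interval 0.68 to 1.82); the adjusted p was 0.0933 by edgeR's quasi-likelihood test and 0.00661 with the block, which was lost only without D0 of experiment 2 (0.139). At D4 the value was -0.70 (95% interval -1.27 to -0.12), with an adjusted p of 1.00 and, with the block, of 0.26. CTSK and CTSS are neighbours on chromosome 1, 30.2 kb apart on the same strand, with 1 other annotated gene touching the stretch between them. No 50-base word of the CTSK transcripts, and 1.34% of those of CTSS, occurs in transcripts of another gene.

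Neither gene was a large part of the cathepsin RNA. CTSS made up 0.00817% and 0.0222% of the CPM of the 10 cathepsins at D0 and 0.21% and 0.351% at D10, and CTSK 0.672% and 0.655% at D0 and 1.27% and 2.16% at D10. CTSB, a protease found in nearly all cells, took 39.6% to 57.2% in every library. CTSB had a log2 fold change at D10 of 0.35 (95% interval -0.35 to 1.05). CTSC, the dipeptidyl peptidase that activates granule proteases, had 1158 and 739 CPM at D0 and 734 and 268 at D10, a log2 fold change of -0.92 (95% interval -2.01 to 0.17) with an adjusted p of 0.778, with the block 0.0838. CTSC was lower at D10 than at D0 within both experiments, but the experiment 1 value at D10 all but equals the experiment 2 value at D0. Without D10 of experiment 1 the blocked test called CTSC. The remaining 6, CTSA, CTSD, CTSF, CTSL, CTSO and CTSZ, lay between -0.22 and -0.03 at D10.

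Of the 13 other hydrolases, which cleave sugars, lipids and sulphates, none was called at D4, D7 or D10 with or without the block. Their median log2 fold change at D10 was 0.03, with 5 higher and 3 lower in both experiments. GLB1 (ENSG00000170266.15, chromosome 3, 32996608 to 33097230, minus strand), the enzyme behind the senescence stain, had 196 and 153 CPM in D0 medium, 162 and 133 in D4, 159 and 145 in D7, and 208 and 143 in D10. The experiment 1 libraries were above those of experiment 2 in each medium, and the groups overlapped throughout. The log2 fold change of GLB1 was -0.24 at D4, -0.20 at D7 and 0.01 at D10 (95% interval -0.60 to 0.62). With the experiment as a block the D10 value was -0.0035, with a narrower 95% interval of -0.35 to 0.34. GLB1 shares 8.11% of its exon bases with genes on the other strand.

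The hydrolases at the ends of the range were GAA, which breaks down glycogen, at 0.43 (95% interval -0.14 to 1.00), and FUCA1 at -0.83 (-1.87 to 0.20) and LIPA, which frees cholesterol from its esters, at -0.62 (-1.34 to 0.09). FUCA1 had 1.18 to 3.93 CPM, few counts for its length. LIPA was at 50.2 CPM in D10 of experiment 2 and at 79.5 in that of experiment 1, against 93.9 and 106 at D0. SMPD1, which cleaves sphingomyelin, was at 101 CPM in D10 of experiment 2 and between 195 and 331 in the other 7 libraries, and its log2 fold change was -0.39 (95% interval -1.56 to 0.78). IDS, which removes sulphate from glycosaminoglycans, was higher than D0 in both experiments at all 3 days, with 0.31, 0.42 and 0.39, and was not called at any of them. With D10 of experiment 1 left out, the blocked test called GAA, FUCA1, LIPA and SMPD1, that is, on the D10 library of experiment 2 alone.

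The 2 activators were not called. GM2A, which lifts gangliosides from the membrane for digestion, had a log2 fold change of 0.36 at D10 (95% interval -0.25 to 0.97) after -0.22 at D4 and -0.25 at D7. PSAP had -0.14, -0.20 and -0.01, and its 95% interval at D10 was -0.63 to 0.61.

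None of the 5 membrane proteins was called. LAMP1 (ENSG00000185896.10, chromosome 13, 113297241 to 113323672, plus strand), a heavily glycosylated protein that lines the lysosome, had 832 and 631 CPM in D0 medium, 759 and 621 in D4, 755 and 647 in D7, and 805 and 509 in D10. LAMP2 (ENSG00000005893.15, chromosome X, 120427827 to 120469365, minus strand), its partner, which also takes part in chaperone-mediated autophagy, had 236 and 238 in D0 medium, 204 and 241 in D4, 202 and 218 in D7, and 217 and 190 in D10. The media overlapped in LAMP1, and LAMP2 at D10 lay below both D0 libraries. The log2 fold change at D10 was -0.15 for LAMP1 (95% interval -0.87 to 0.56) and -0.22 for LAMP2 (-0.72 to 0.28). Without a block, LAMP1 was at 0.06 without D0 of experiment 1 and at 0.14 without D10 of experiment 2. Within experiments 1 and 2 its log2 change at D10 was -0.05 and -0.31. CD63, SCARB2, the receptor that carries glucocerebrosidase to the lysosome, and the calcium channel MCOLN1 lay between -0.32 and 0.11 at D10.

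The 3 members of the proton pump, which acidifies the lysosome, were lower at D10 than at D0 in both experiments, and none was called with or without the block. ATP6V0D1, a subunit of the membrane part, had 210 and 124 CPM at D0 and 159 and 79.1 at D10, a log2 fold change of -0.49 (SE 0.44; adjusted p 0.998, with the block 0.104). ATP6V1H, which regulates the pump, had -0.31 (-0.94 to 0.32), and the accessory protein ATP6AP1 -0.12 (-1.04 to 0.81). With the block the values were -0.52 for ATP6V0D1 (95% interval -0.86 to -0.17) and -0.30 for ATP6V1H (-0.59 to -0.01). ATP6AP1 was at -0.12 with the block (-0.43 to 0.20). These intervals are not adjusted for the number of genes tested. The median of these 3 members without a block was -0.31 at D10 and 0.01 at D4. They do not stand for the whole pump. The 14 other proton pump genes that could be tested had a median of 0.11 at D10, with 7 higher and 1 lower in both experiments.

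TFEB (ENSG00000112561.17, chromosome 6, 41683978 to 41736259, minus strand), the regulator of lysosomal genes, was low in all libraries, with 6.62 and 5.17 CPM in D0 medium, 9.7 and 5.67 in D4, 7.18 and 6.76 in D7, and 7.36 and 6.23 in D10. It was higher than D0 in both experiments at every day, but D0 overlapped with D4 and D10. Its log2 fold change was 0.38 at D4, 0.24 at D7 and 0.21 at D10 (95% interval at D10 -0.58 to 0.99), and no test called it. TFE3, its relative, had -0.23 at D10 (-1.03 to 0.57). RNA levels do not report on the entry of these proteins into the nucleus, by which they are mainly controlled.

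The autophagy genes held the only member called lower. GABARAPL1 (ENSG00000139112.10, chromosome 12, 10212458 to 10223130, plus strand), an ATG8-family protein that is attached to the autophagosome membrane, had 365 and 464 CPM in D0 medium, 198 and 213 in D4, 181 and 202 in D7, and 196 and 189 in D10. All 6 later libraries were below both D0 libraries, and D4, D7 and D10 overlapped. The log2 fold change was -1.01 at D4 (SE 0.23, 95% interval -1.54 to -0.49), -1.11 at D7 (SE 0.23, -1.64 to -0.58) and -1.10 at D10 (SE 0.23, -1.63 to -0.58), a 2.02-, 2.16- and 2.15-fold lower level. The adjusted p by the quasi-likelihood test of edgeR (Benjamini-Hochberg) was 0.757, 0.307 and 0.101, with the block 0.0516, 0.0191 and 0.00643, and by DESeq2 0.0334, 0.00405 and 0.00142. With the block, the D10 call was lost without D0 of experiment 2 (0.149), and the D7 call without either D0 library (0.099 and 0.381) or either D7 library (0.152 and 0.334). From D4 to D10 the difference was -0.09 (95% interval -0.61 to 0.43). Since the 3 comparisons share the D0 libraries, their agreement rests in part on the same 2 values. GABARAPL1 shares 8.05% of its exon bases with AC115676.1, a gene on the other strand that is not in the count table.

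WIPI1 (ENSG00000070540.12, chromosome 17, 68420948 to 68457513, minus strand), which binds the lipid that marks the forming autophagosome, had 145 and 116 CPM in D0 medium, 157 and 148 in D4, 180 and 162 in D7, and 223 and 205 in D10. Both D10 libraries were above all others, and within each experiment every day was above the one before. The log2 fold change was 0.22 at D4, 0.39 at D7 and 0.71 at D10 (SE 0.22, 95% interval 0.21 to 1.21), a 1.64-fold higher level; the adjusted p at D10 was 0.305 by edgeR's quasi-likelihood test, 0.0229 with the block and 0.151 by DESeq2. The blocked call was lost without D0 of experiment 1 (0.151), D0 of experiment 2 (0.451) or D7 of experiment 2 (0.0601). WIPI1 shares 828 exon bases with ARSG, a sulphatase gene on the other strand, and whether the counting used strand is not given in the sources used here. ARSG itself had 112 to 156 counts in the D0, D4 and D7 libraries and 247 and 322 at D10, so the reads of the overlap cannot be told apart for either gene. WIPI1 held 1731 and 1595 counts at D0.

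SQSTM1 (ENSG00000161011.19, chromosome 5, 179806398 to 179838078, plus strand), or p62, a receptor that carries ubiquitinated cargo into autophagosomes and is itself degraded there, had 798 and 590 CPM in D0 medium, 740 and 480 in D4, 717 and 459 in D7, and 836 and 715 in D10. Each experiment had its highest value at D10 and its lowest at D7, and the groups overlapped. Its log2 fold change at D10 was 0.16 (95% interval -0.63 to 0.94), and -0.04 without D0 of experiment 2. SQSTM1 shares 22% of its exon bases with genes on the other strand. MAP1LC3B, the marker most used to follow autophagy, had -0.20 (SE 0.35) at D10, ULK1, the kinase that starts it, -0.01 (-0.62 to 0.61), and BECN1, of the lipid kinase complex, -0.17 (-0.60 to 0.26).

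**Figure D4:**
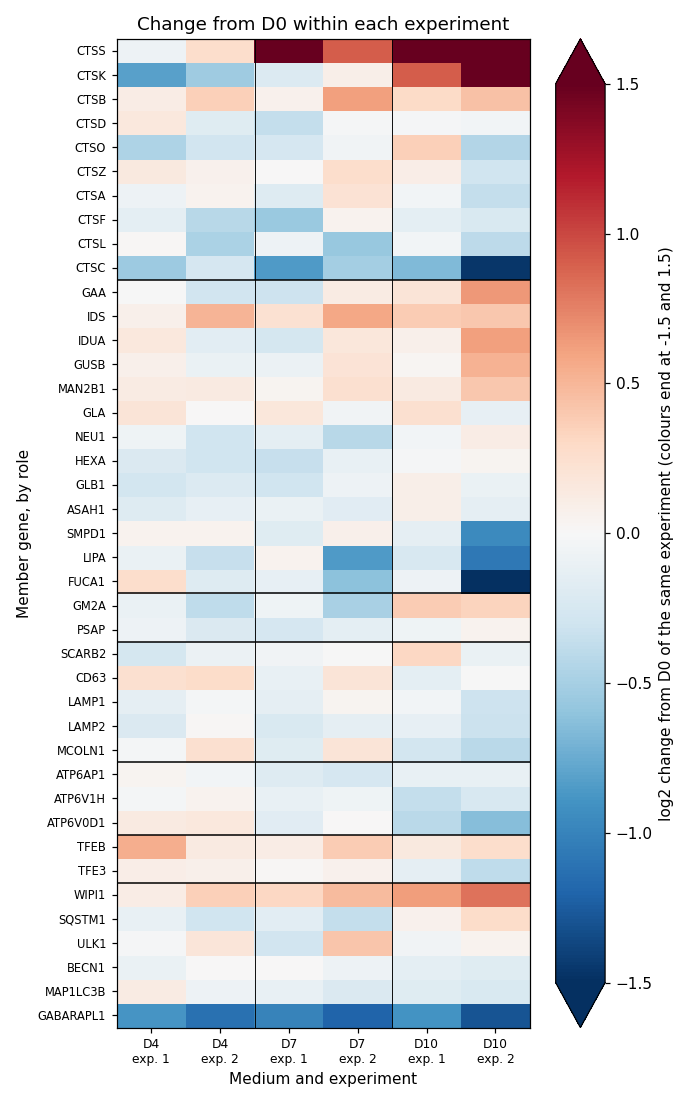
Log2 change from the D0 library of the same experiment for the 41 members (rows, by role) at D4, D7 and D10 in experiments 1 and 2 (columns), with red for higher and blue for lower and colours that end at -1.5 and 1.5. CTSS and CTSK are red in both D10 columns, GABARAPL1 is blue in all 6, and CTSC, FUCA1, LIPA and SMPD1 are darkest in D10 of experiment 2.

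The 2 experiments also differed, and the members called in that comparison were all lower in experiment 2. In a fit with medium and experiment, 31 of the 41 were lower in experiment 2 and 10 higher, with a median log2 difference of -0.31 against 0.01 over all genes. By the quasi-likelihood test of edgeR (Benjamini-Hochberg) 17 members were called lower (16.2% of all genes were) and 0 higher (18.6% of all genes were), that is, 17 in either direction against 34.8% of all genes. This count fell when a D0 or a D4 library was left out, and the share over all genes was not counted in those fits. Of the 41 members, 22 were lower in experiment 2 in all 4 media, and 1 was higher in all 4. The same count was not made over all genes, so no share stands beside it. The experiment difference was larger in size than the D10 change in 24 of 41 (58.5%), against 60.1% of all genes. The summed CPM of the members was 11247 to 12833 in the libraries of experiment 1 and 9510 to 10042 in those of experiment 2. The study's methods say only that the experiments were independent, and what differed between them was not tested.

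MCOLN1 had the largest such difference, with 40, 39.2, 35.4 and 32.9 CPM in experiment 1 and 19, 22.5, 21.7 and 14.3 in experiment 2 (D0, D4, D7, D10), a log2 difference of -0.94 (SE 0.12, adjusted p 0.00175 by edgeR's quasi-likelihood test). Every experiment 1 library was above every experiment 2 library. SMPD1 followed with -0.85 (SE 0.17), and all 3 proton pump genes were called, ATP6V0D1 with -0.77 (SE 0.11), ATP6AP1 with -0.70 (SE 0.10) and ATP6V1H with -0.41 (SE 0.09). The other 12 were CTSC, CTSD, GLB1, GLA, NEU1, MAN2B1, GM2A, LAMP1, CD63, TFE3, SQSTM1 and MAP1LC3B, between -0.69 and -0.31. The members called at D10 were not among them: CTSS had 0.32, CTSK -0.18, GABARAPL1 0.14 and WIPI1 -0.17. Of the 5 members with TCACGTGA, 3 were called lower in experiment 2 (ATP6V0D1, LAMP1 and MCOLN1); the median was -0.43 over the 9 members with CACGTG and -0.32 over the 23 without it.

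**Figure D5:**
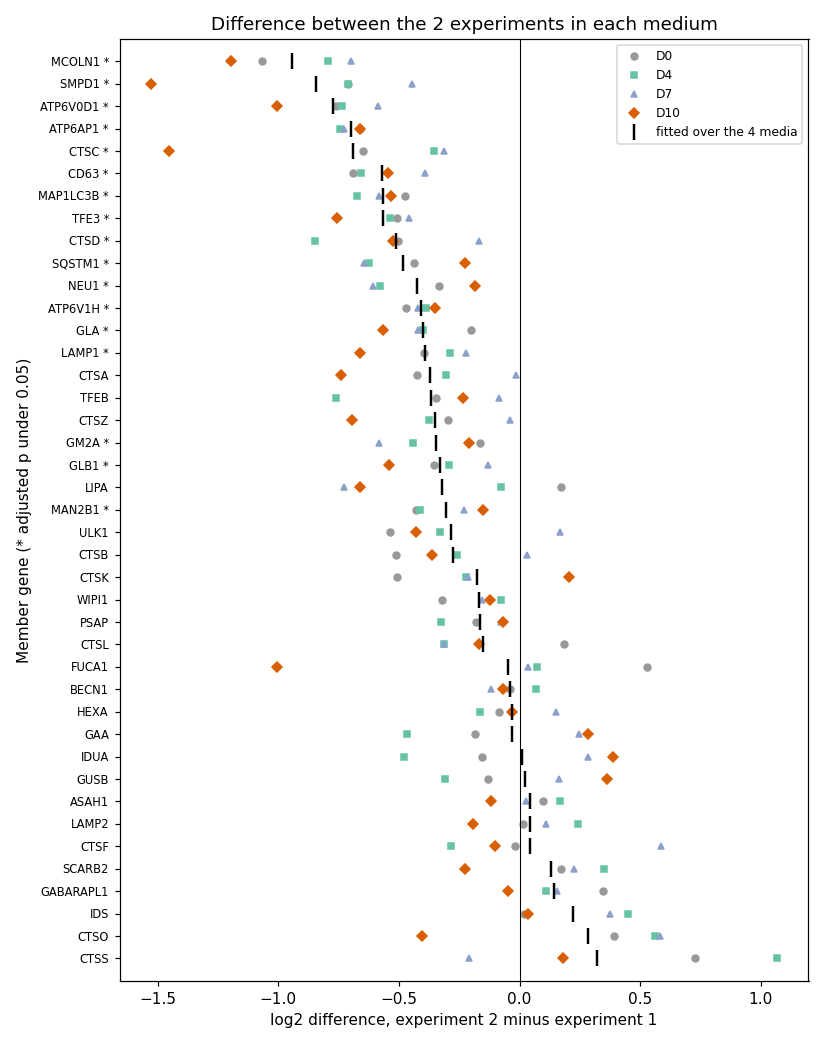
Log2 difference between experiment 2 and experiment 1 for each of the 41 members, in each of the 4 media (coloured symbols) and as fitted over them (black bar), with a star at the 17 members whose adjusted p is under 0.05. The fitted values run from -0.94 for MCOLN1 to 0.32 for CTSS, and 31 of the 41 are below 0.

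A wider set of lysosome and autophagy genes, 129 of which could be tested, was used to see whether the members stand for the system. It covers other proteases, cystatins, further hydrolases, membrane and proton pump proteins, sorting receptors, nutrient-sensing proteins and autophagy genes. Its median log2 fold change was 0.00 at D4, -0.05 at D7 and -0.01 at D10, and 113 of the 129 lay within 0.5 at D10. The shift between the experiments was seen here too. The median log2 difference of experiment 2 from experiment 1 was -0.20, against 0.01 over all genes, with 91 of the 129 lower and 38 higher. edgeR's quasi-likelihood test without a block called 0 of the 129 at any day, with 1, 2 and 7 at an unadjusted p under 0.05 at D4, D7 and D10 (0.775%, 1.55% and 5.43%, against 2.96%, 4.34% and 7.94% of all genes); with the block it called 0, 0 and 4, which at D10 is 3.1% against 4.99% of all genes. All 4 were higher at D10 (2.54% of all genes were called higher). DESeq2 called 0, 1 and 3, the 1 at D7 being the cystatin CST1. The blocked count at D10 was 0 without D0 of experiment 2 (0.732% of all genes), 12 or 9.3% without D10 of experiment 1 (13.4% of all genes) and 7 or 5.43% without D10 of experiment 2 (6.52% of all genes). By list, 2 of 26 further hydrolases and 2 of 18 membrane proteins were called, and 0 of 3 proteases, 4 cystatins, 14 proton pump genes, 6 sorting genes, 16 nutrient-sensing genes or 42 autophagy genes.

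TPCN1, a two-pore cation channel of endosomes and lysosomes, had 64.3 and 52.7 CPM at D0 and 137 and 192 at D10, a log2 fold change of 1.49 (SE 0.25, 95% interval 0.92 to 2.07; adjusted p 0.0667 by edgeR's quasi-likelihood test, 0.00448 with the block). ARSG, named above for its overlap with WIPI1, had 9.97 and 8.44 CPM at D0 and 19.6 and 25.4 at D10, a log2 fold change of 1.29 (SE 0.25; adjusted p 0.0875, with the block 0.0094). In both genes the D10 libraries were above the other 6. The other two of the 4, named after their values were seen, were NPC1, which exports cholesterol from the lysosome, at 1.27 (SE 0.22; 0.0744, with the block 0.00409), and MANBA, a mannosidase, at 0.80 (SE 0.22; 0.218, with the block 0.0129). All 4 blocked calls were lost without D0 of experiment 2, at adjusted p between 0.0903 and 0.313, and that of MANBA also without D0 of experiment 1 (0.0924). The cystatins, inhibitors of cysteine cathepsins, had values at D10 from -0.30 for CSTB to 2.95 for CST1, and edgeR called none of the 4 that could be tested, with or without the block. The D10 value of CST1 rests mostly on experiment 1, with 4.67 CPM there and 0.316 in experiment 2. DESeq2 called CST1 at D7 (log2 fold change 3.98 by edgeR, SE 1.11, adjusted p 0.607; by DESeq2 0.013), where it had 3.44 and 6.76 CPM, against 0.419 and 0.218 at D0. CST1 and CST4 were called at D10 with the block once D10 of experiment 2 was left out.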

How the data were processed

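The authors aligned polyA-selected, TruSeq Stranded reads to GRCh38 (hg38); their processing notes name STAR 2.5 and DESeq2. The deposited table gives counts per gene, and RPM made by the authors from them, which was not used here. The counting tool, annotation and strand setting are not given in the sources used here. One column header reads DO with the letter O and was taken as D0 of experiment 1. Members and lists were chosen with earlier results of these data known.

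Counts were tested with edgeR 4.0.16 (R 4.3.3): filterByExpr, TMM, group as the only term, all 8 libraries, Benjamini-Hochberg adjustment over 13798 genes, threshold 0.05. A fold change is fitted; CPM is counts divided by the TMM-scaled library total and multiplied by 1000000. Same-numbered libraries were taken as the same experiment, although the titles give only a replicate number. Their deviations from the group means correlated over 6 pairs of groups (r 0.418 to 0.722). The experiment as a block was therefore given beside the result where it changed a call. DESeq2 1.42.0 and other filters, scalings and left-out libraries were alternatives. Scripts were tested on simulated data.

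Values in full are given for members called with or without the block and for GLB1, LAMP1, LAMP2, TFEB and SQSTM1; of the wider lists, for genes called without a block, or else the gene with the largest change at D10 among those called with it. Positions and exon lengths are from GENCODE 29, which holds 99.6% of the gene IDs; promoter windows are from RefSeq. Each 50-base word of the members' transcripts was searched on both strands of the transcripts of other genes. Intervals (95%) rest on the spread between libraries of a group, estimated over all groups together and moderated across genes. With the block, the mean difference between the experiments is taken out of that spread.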

Additional observations from a re-analysis of the deposited data

Results flagged for a closer look

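CTSK and CTSS, 2 members, changed between D4 and D10 media by the test of that difference with the experiment as a block (quasi-likelihood test of edgeR, Benjamini-Hochberg over all genes, 2.55% of which were called). CTSK differed by 1.955 on the log2 scale (SE 0.19, adjusted p 0.00261) and was higher at D10 than at D4 in 2 of 2 experiments. CTSS differed by 4.003 (SE 0.41, adjusted p 0.00342), also higher in 2 of 2 experiments. Without the block the adjusted p was 0.0706 for both. With the block, the call of CTSK was lost without D4 of either experiment (0.0587 and 0.0605) and that of CTSS without D4 of experiment 1 (0.0608).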

How the results depend on the processing

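The number of genes called moved with the fit. At D4 it was 0 and became 38 with the replicate block, 44 by DESeq2 and 21 without a filter on low counts; at D7 it was 0 and became 172, 113 and 93. At D10 it was 40, and became 688 with the block, 383 by DESeq2, 371 without the filter, 20 with at least 10 counts in every library, 0 with D0 and D10 alone and 2 at an adjusted p under 0.01. Of the members, DESeq2 called 1 at D4, 1 at D7 and 3 at D10, the block 1 at D7 and 4 at D10, and the test without a filter 2 at D10; 0 were called at D10 with at least 10 counts in every library (which removes CTSS), with D0 and D10 alone, or at an adjusted p under 0.01. The block changed no other call among the members named in full. Leaving out 1 library at a time gave 0 to 153 genes and 0 to 1 members at D10, and 6 to 17 members between the experiments.

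The median of the members ranged over these left-out libraries from -0.24 to 0.092 at D4, from -0.22 to 0.095 at D7 and from -0.21 to 0.16 at D10. By role at D10, without 1 library, the median ranged from -0.26 to 0.18 for cathepsins, -0.038 to 0.20 for hydrolases, 0.091 to 0.27 for activators, -0.36 to 0.16 for membrane proteins, -0.52 to -0.051 for the proton pump, -0.26 to 0.22 for the transcription factors and -0.22 to 0.17 for autophagy genes. Some signs turned: GLB1 at D10 was -0.0035 with the block, and without 1 library it ranged from -0.26 (D10 of experiment 1) to 0.25 (D10 of experiment 2), LAMP1 from -0.50 (D10 of experiment 1) to 0.14 (D10 of experiment 2) and SQSTM1 from -0.042 (D0 of experiment 2) to 0.40 (D0 of experiment 1). These ranges are from fits without a block, which the difference between the experiments enters. Within experiments 1 and 2 the D10 change was 0.09 and -0.10 for GLB1. It was -0.05 and -0.31 for LAMP1, and 0.07 and 0.28 for SQSTM1. TMM and size factors differed by less than 0.1 in the median of all genes, with 17 members higher at D10 under both. The blocked fits without 1 library were chosen after seeing the data. The cause of these shifts was not tested, and 2 libraries a group limit what can be called; CTSS at D0 rests on 4 and 9 counts.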
